A study of Drosophila melanogaster with 9 samples.

Results

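Heads of adult male flies gave readable signal from a small number of digestive enzyme genes, and for the proteases among them the signal depended on the array. The 39 genes described here encode Jonah proteases (13 genes), trypsins (9), maltases (10), alpha-mannosidases (4) and lysozymes (3). They were taken by their symbols in the platform's probe-to-gene table, from probe sets that name 1 gene, out of 11982 genes in all. Each of the 39 was read by 1 such probe set, that is, by several short oligonucleotides whose signals are summarized as 1 intensity. A RefSeq gene table of fly assembly Release 6 holds 50 genes with such symbols, 1 of them a pseudogene, and the 11 without a single-gene probe set, among them both amylase genes, *gammaTry*, *deltaTry*, *LysB*, *LysD* and *LysE*, were not analysed as members.

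Head RNA was read on 9 Affymetrix Drosophila 2.0 arrays, with 3 for each of 3 genotypes. The gene altered was *dLmo*, a LIM-domain transcriptional regulator, which gains function in *BxJ* flies and loses it in *EP1306* flies. The control was *w;iso*, isogenic for both large autosomes, and both mutants had been crossed repeatedly into that background. The flies were untreated males, 2 to 3 days old in the labels and 2 to 4 days old in the methods. The methods name 3 groups of 200 heads per genotype, while the labels describe 1 pool of 600 flies per genotype, with 200 flies per sample. At what step the pool was divided is not settled here, so the p-values may measure only technical spread.

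Digestive enzymes of the fly are made mostly by the midgut, which lies in the thorax and abdomen. Jonah proteases and trypsins are serine proteases that cut dietary protein, maltases are alpha-glucosidases that release glucose from maltose and other sugars, alpha-mannosidases trim mannose from glycans, and lysozymes break bacterial cell walls. In whole-head RNA, fewer cells of a type and less RNA per cell cannot be told apart.

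Of the head markers, 5 of 7 listed photoreceptor genes were measured, led by *Arr2* and *Arr1*, the arrestins of the photoreceptors. Their summed intensity was 60478 to 73418 over the 9 arrays, so photoreceptor transcripts were read strongly on each array. Of 8 listed head fat body genes 7 were measured. Their sum was 11335 to 17486 in the control, 15409 to 17493 in *BxJ* and 13148 to 15899 in *EP1306*. Most of each sum was *apolpp*, at 10675 to 14733 over the 9 arrays. Another of the 7 was the yolk protein gene *Yp1*. It was at 518, 8.1 and 8.02 in the control, 5.6, 374 and 100.5 in *BxJ*, and 7.96 to 9.02 in *EP1306*. *Yp2* and *Yp3* were also highest in replicate 1 of the control (252 and 588) and in replicate 2 of *BxJ* (86.3 and 429.6). The reason for yolk protein signal in heads described as male was not tested. Arrays other than control replicate 2 thus also stood out for some transcripts. Correlation across probe sets was 0.994 to 0.998 between arrays of 1 genotype. For the proteases, however, *w;iso* replicate 2 stood apart from the other control arrays, and the differences of the leading proteases are given below with and without it. That array was picked out by these same protease values, so results without it describe the data and are no separate support.

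Most of the members were read at the low end of the arrays. The median intensity of an array was 15.94 to 17.8, and 23 of the 39 genes lay below it on all 9 arrays, between 4.01 and 14.2. These were all 3 lysozymes, 6 of 9 trypsins, 6 of 10 maltases, 6 of 13 Jonah proteases and the alpha-mannosidases *LManIII* and *LManIV*. Above the median on every array were 7 genes, namely *Mal-A1*, *Mal-A5*, *Mal-B1*, *Mal-B2*, *LManI*, *LManII* and *Jon74E*. The other 9 crossed the median from array to array, and all of them were proteases: *Jon25Bi*, *Jon25Bii*, *Jon25Biii*, *Jon65Aiii*, *Jon65Aiv*, *Jon99Fi*, *alphaTry*, *betaTry* and *epsilonTry*. The map of the 39 genes over the 9 arrays shows these 3 kinds of pattern.

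**Figure D1:**
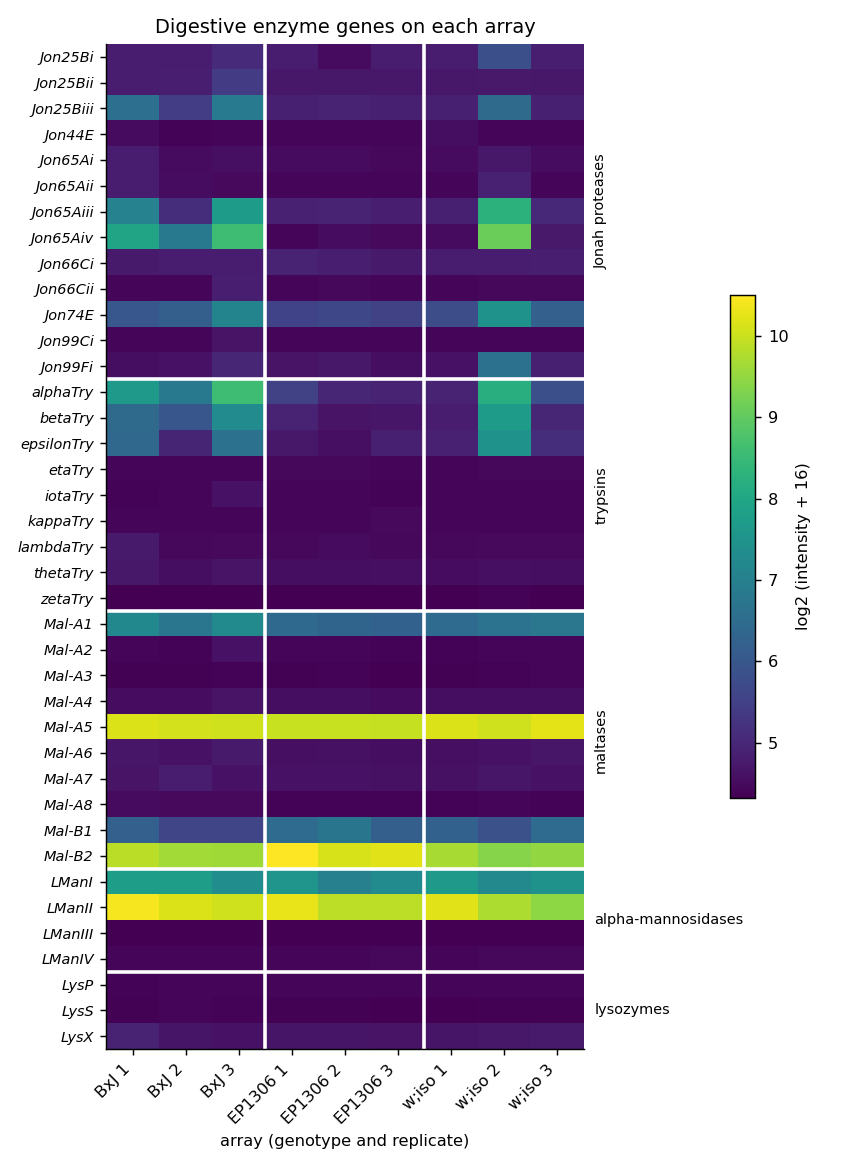
Colour gives log2 of the intensity plus 16 for each of the 39 digestive enzyme genes (rows, grouped by family) on each of the 9 arrays (columns, by genotype and replicate). No maltase or alpha-mannosidase row spans more than 0.77 within a genotype, while some protease rows brighten in *BxJ* arrays and in control replicate 2.

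*Jon65Aiv*, a Jonah protease (probe set 1628800_at), had the widest range within a genotype. Its intensity was 6.63, 537 and 10.9 in control replicates 1, 2 and 3, and 227, 97.7 and 363 in the *BxJ* arrays. In *EP1306* it was 5.39, 6.90 and 6.18. One control array therefore read higher than any *BxJ* array, the other 2 read lower than all of them, and *EP1306* stayed at the floor of the scale.

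*Jon65Aiii*, its neighbor on chromosome arm 3L with no annotated gene between them, followed the same arrays. It was at 13.2, 294 and 15.9 in the control, 118, 19.3 and 195 in *BxJ*, and 13.6, 14.0 and 12.6 in *EP1306*. Next to it, *Jon65Aii* and *Jon65Ai* were below the median of every array. *Jon65Aii* was at 5.52, 13.6 and 5.71 in the control, 11.8, 6.99 and 6.34 in *BxJ*, and 5.62, 5.06 and 5.38 in *EP1306*, so control replicate 2 was the highest there too, at low intensities.

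The trypsins gave the same picture. *alphaTry* (1638196_at) was at 14.7, 282 and 40.7 in the control, 183, 95.9 and 365 in *BxJ*, and 29.5, 15.5 and 14.1 in *EP1306*. *betaTry* (1630320_at) was at 12.0, 194 and 15.6 in the control, 72.3, 47.2 and 141 in *BxJ*, and 14.4, 9.14 and 9.80 in *EP1306*. *epsilonTry* was at 13.7, 160.2 and 18.8, at 67.0, 14.9 and 82.6, and at 10.3, 7.86 and 13.3 in the same order of genotypes. These 3 genes lie in a row on chromosome arm 2R, and of the 6 other trypsin genes of the group none rose above the median of any array.

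In the remaining uneven Jonah proteases the genotypes differed in degree. *Jon25Biii* was at 13.2, 72.1 and 13.3 in the control, 79.9, 27.7 and 99.7 in *BxJ*, and 13.3, 13.8 and 13.1 in *EP1306*. *Jon74E* was at 39.4, 163 and 58.2, at 47.9, 56.6 and 121, and at 31.3, 35 and 30.7. *Jon99Fi* was highest in control replicate 2, with 8.74, 84.6 and 13.3 in the control, 7.51, 8.46 and 15.7 in *BxJ* and 8.95, 10.5 and 7.30 in *EP1306*. *Jon25Bi* likewise read 40.4 there, between 12.2 and 12.9 on the other control arrays, with 11.7, 12.2 and 17.5 in *BxJ* and 11.9, 6.6 and 11.8 in *EP1306*. *Jon25Bii* was highest in *BxJ* replicate 3, with 10.2, 10.7 and 10.6 in the control, 12.0, 12.7 and 26.6 in *BxJ*, and 10.3, 10.6 and 10.5 in *EP1306*. *BxJ* replicate 3 read above replicate 1 and replicate 1 above replicate 2 in 10 of the 39 members (25.6%, against 12.8% of all probe sets), among them 6 of the 8 whose range exceeded 1 on the log2 scale in some genotype, and in 11 of the 15 accessory gland genes measured.

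**Figure D2:**
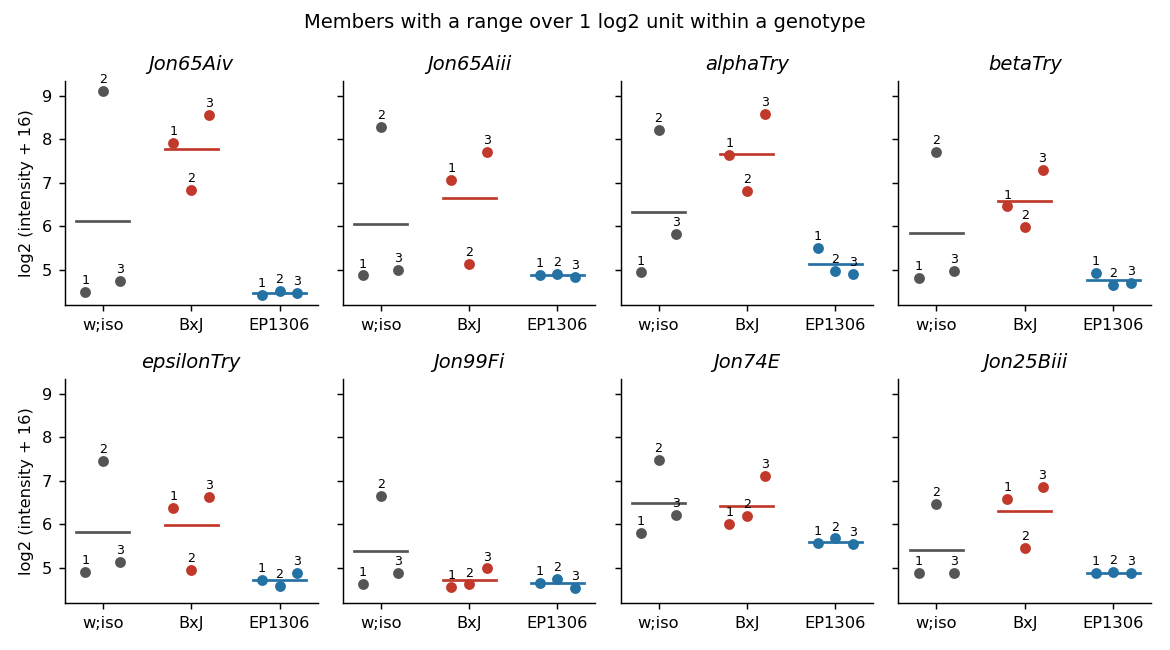
Log2 of the intensity plus 16 (vertical axis) of the 8 members with a range over 1 within a genotype, each point an array with its replicate number and each line a genotype mean. Control replicate 2 is the highest control array in all 8 panels, and the 3 *EP1306* arrays lie close together, within 0.59.

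On a log2 scale, 8 of the 39 genes spanned more than 1 unit among the control arrays (20.5%, against 0.874% of the 18769 probe sets tested), 7 among the *BxJ* arrays (17.9%, against 0.996%) and 0 among the *EP1306* arrays (against 0.517%). Control replicate 2 exceeded both other control arrays by more than 1 unit in 68 probe sets, and 8 of them, 11.8%, were these digestive proteases. The mean over the 13 Jonah proteases was 4.72, 5.87 and 4.80 in the control, 5.34, 5.0 and 5.65 in *BxJ*, and 4.69, 4.69 and 4.67 in *EP1306*. Over the maltases it was between 5.90 and 6.06 on every array, and none of the uneven genes was a maltase.

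Transcripts of the male accessory gland and testis, which lie in the trunk, were uneven over partly the same arrays. Of 17 listed male accessory gland genes 15 were measured, led by *Acp98AB* and *Acp53C14a*, and their summed intensity was 199.7, 1496 and 257 in the control, 2215, 1329.7 and 7030.5 in *BxJ*, and 1809.6, 251 and 197 in *EP1306*. Of 12 listed testis genes 10 were measured, with sums of 104, 519.9 and 129, of 414, 319.8 and 1615, and of 282, 108 and 100.4. Control replicate 2 and *BxJ* replicate 3 were thus high in all 3 kinds of transcript, whereas *EP1306* replicate 1 was high in accessory gland and testis transcripts while its Jonah mean equalled that of *EP1306* replicate 2. Among single proteases *EP1306* replicate 1 was the highest *EP1306* array for 4 of the 13 Jonah proteases and for 2 of the 9 trypsins, *alphaTry* and *betaTry*. Its trypsin mean was 4.64, beside 4.55 and 4.57 in *EP1306* replicates 2 and 3. Of 12 midgut markers outside the members 8 were measured, among them the transcription factor genes *GATAe* and *cad*, and 5 of the 8 were below the median on every array, the brightest being *Ptx1* and *MtnB*. The sum of the 8 was 154 to 175 in the control, 146 to 201 in *BxJ* and 144 to 166 in *EP1306*. Most of it was *Ptx1*, at 50.2 to 71.4, and *MtnB*, at 28.1 to 65.8, so the sum says little of the dimmer genes. The remaining gene not below the median on every array was *PGRP-SC2*. It was at 15.3 to 18.4 in the control, 20.1 to 39.7 in *BxJ* and 12.9 to 19.6 in *EP1306*, and did not pass in any comparison by limma. The source of the protease transcripts, and the part of trunk tissue in the differences between genotypes, were not tested.

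**Figure D3:**
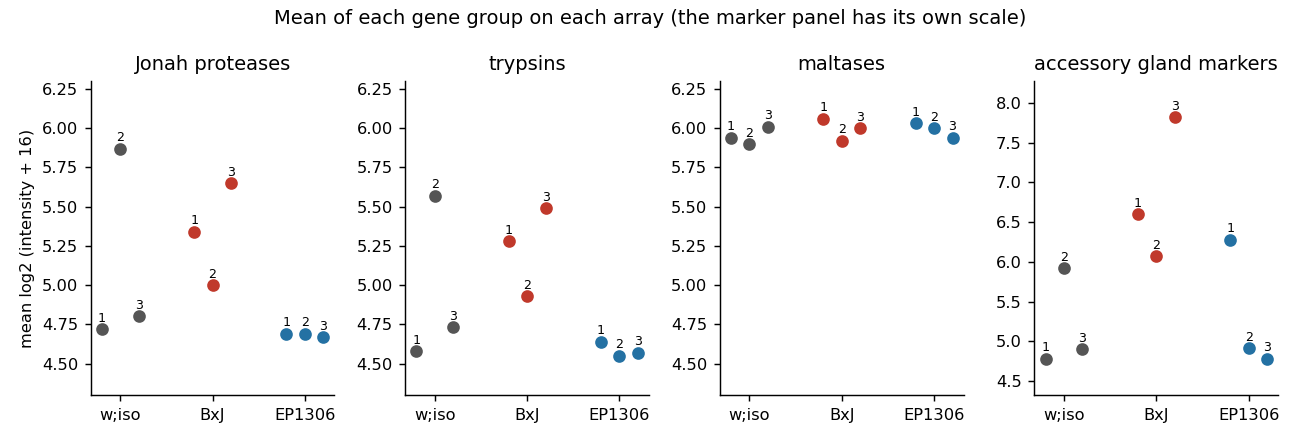
Mean log2 of the intensity plus 16 (vertical axis) over the Jonah proteases, trypsins, maltases and accessory gland markers on each array, points numbered by replicate. The protease means are highest in control replicate 2 and *BxJ* replicate 3. The maltase means are level, although single maltases differed between the mutants in both directions. *EP1306* replicate 1 stands well above the other *EP1306* arrays only in the accessory gland panel.

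The first comparison asks what gain of *dLmo* function did to these genes. Of the 39, 1 was called higher and 0 lower in *BxJ* than in the control at an adjusted p under 0.05 by limma, against 0.288% of all probe sets called in either direction (0.144% higher and 0.144% lower). At an unadjusted p under 0.05 there were 2 of 39 (5.13%, against 12.1% of all probe sets). The median log2 difference was 0.043, beside -0.016 over all probe sets. Leaving out control replicate 2 gave 0.070 and leaving out control replicate 1 gave 0.015, while the median was 0.002 when *BxJ* replicate 3 was omitted and 0.088 when *BxJ* replicate 2 was. For *Jon65Aiv* the difference was 1.65 (95% interval -0.88 to 4.19, adjusted p = 0.501 from limma), and for *alphaTry* it was 1.34 (95% interval -0.46 to 3.15, adjusted p = 0.473). Without control replicate 2 these became 3.15 (adjusted p = 0.0743) and 2.29, so neither passed in either fit. Leaving that array out, every *BxJ* array lay above both other controls for 9 of the 39 genes (23.1%, against 4.75% of all probe sets), which were *Jon25Bii*, *Jon25Biii*, *Jon65Aii*, *Jon65Aiii*, *Jon65Aiv*, *alphaTry*, *betaTry*, *Mal-A7* and *Mal-A8*. With all 3 controls this held for 2 genes, *Jon25Bii* and *Mal-A8* (against 3.37%), and in 6 genes every *BxJ* array was below the control (against 27.6%). These 6 were *Jon66Ci*, *LManIII*, *LManIV*, *etaTry*, *kappaTry* and *zetaTry*. All were below the median of every array, with log2 differences of only -0.03 to -0.01. The array left out was chosen for its high protease values, so the share of 23.1% cannot be weighed against that of all probe sets.

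The gene called was *Mal-A8*, a maltase gene at the floor of the scale. Its intensity was 4.74, 5.16 and 4.94 in the control, 6.74, 6.25 and 6.15 in *BxJ*, and 4.79, 4.90 and 5.02 in *EP1306*, far below the array median of at least 15.94. The groups did not overlap, but the log2 difference was only 0.10 (standard error 0.01, adjusted p = 0.034 from limma) and the exact permutation p, two-sided, was 0.1, the smallest that 3 arrays against 3 allow. The call was kept in 1 of the 9 fits that left out an array, that without *BxJ* replicate 3, and adjusted p rose to as much as 0.112 in the others.

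The second comparison concerns loss of *dLmo* function. In *EP1306* 1 of the 39 genes was called higher than in the control and 0 lower, against 1.14% of all probe sets (0.453% higher and 0.687% lower). At an unadjusted p under 0.05 there were 2 of 39 (5.13%, against 9.80%). The median log2 difference was -0.016 beside -0.009, and -0.024 to -0.007 when 1 array was left out. The ends of that range came from omitting *EP1306* replicate 2 and control replicate 2, and omitting *EP1306* replicate 3 gave -0.010. The gene was *Mal-B2* (1623900_a_at), a maltase read well above the median on every array. It was at 802, 652 and 711 in the control, 919.8, 780.3 and 776 in *BxJ*, and 1427, 1095 and 1179 in *EP1306*, so that every *EP1306* array exceeded all the others, and it was the single member whose *EP1306* arrays all lay above the control (against 4.15% of all probe sets). It rose 1.69-fold on the scale of the intensity plus 16 (log2 difference 0.76, standard error 0.12, 95% interval 0.49 to 1.03, adjusted p = 0.0251 from limma), with an exact permutation p of 0.1. Its means on the log2 scale were 10.28 ± 0.195 (SD, n = 3) in *EP1306*, 9.71 ± 0.137 (SD, n = 3) in *BxJ* and 9.52 ± 0.146 (SD, n = 3) in the control. The call was kept in 4 of 9 fits without an array and lost without *BxJ* replicate 2, *EP1306* replicates 1 or 3, or control replicates 2 or 3, with adjusted p-values up to 0.0896. With the hybridization spike-ins as a covariate, the log2 difference was 0.55 (adjusted p = 0.371). The mean log2 value of these spike-ins was 9.83 to 11.12 in the control, 8.66 to 9.57 in *BxJ* and 8.88 to 9.78 in *EP1306*. For the 18S ribosomal RNA control probe sets it was 10.53 to 12.72, 7.83 to 9.43 and 9.23 to 10.01 in the same order. Both were higher on every control array than on any mutant array. In either comparison with the control, such array differences cannot be told apart from genotype, and their part in the result was not otherwise tested.

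*Mal-B1*, which adjoins *Mal-B2* on chromosome arm 2L, had groups that overlapped, at 59.6, 41.9 and 73.9 in the control, 58.0, 32.6 and 32.5 in *BxJ*, and 73.6, 88.5 and 57.7 in *EP1306*. Its log2 difference in *EP1306* was 0.27 (95% interval -0.26 to 0.80). Among the 8 *Mal-A* genes, which stand side by side on 2R, *Mal-A5* was read above the median on every array, at 1136, 1047 and 1196 in the control, 1142, 1067 and 1044 in *BxJ*, and 992, 986 and 978 in *EP1306*. Its *EP1306* arrays lay below all others, by 0.19 from the control on the log2 scale (95% interval -0.32 to -0.05, adjusted p = 0.267 from limma), which did not pass. *Mal-A1* was at 72.5, 86.0 and 93.4, at 131, 90.5 and 136, and at 70.7, 63.1 and 59.4 in the same order, and also did not pass against the control in either mutant.

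For the proteases in *EP1306* the intervals were wide. *Jon65Aiv* differed from the control by -1.65 on the log2 scale (95% interval -4.19 to 0.88, adjusted p = 0.699 from limma) and *alphaTry* by -1.19 (95% interval -3.00 to 0.61, adjusted p = 0.694). Without control replicate 2 they differed by -0.16 and -0.25, so both differences were smaller without that array. Every *EP1306* array was below every control array for 5 genes, *Jon25Bi*, *Jon74E*, *epsilonTry*, *Mal-A1* and *Mal-A5* (12.8%, against 8.17% of all probe sets), and without control replicate 2 for the same 5 (against 11.8%).

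**Figure D4:**
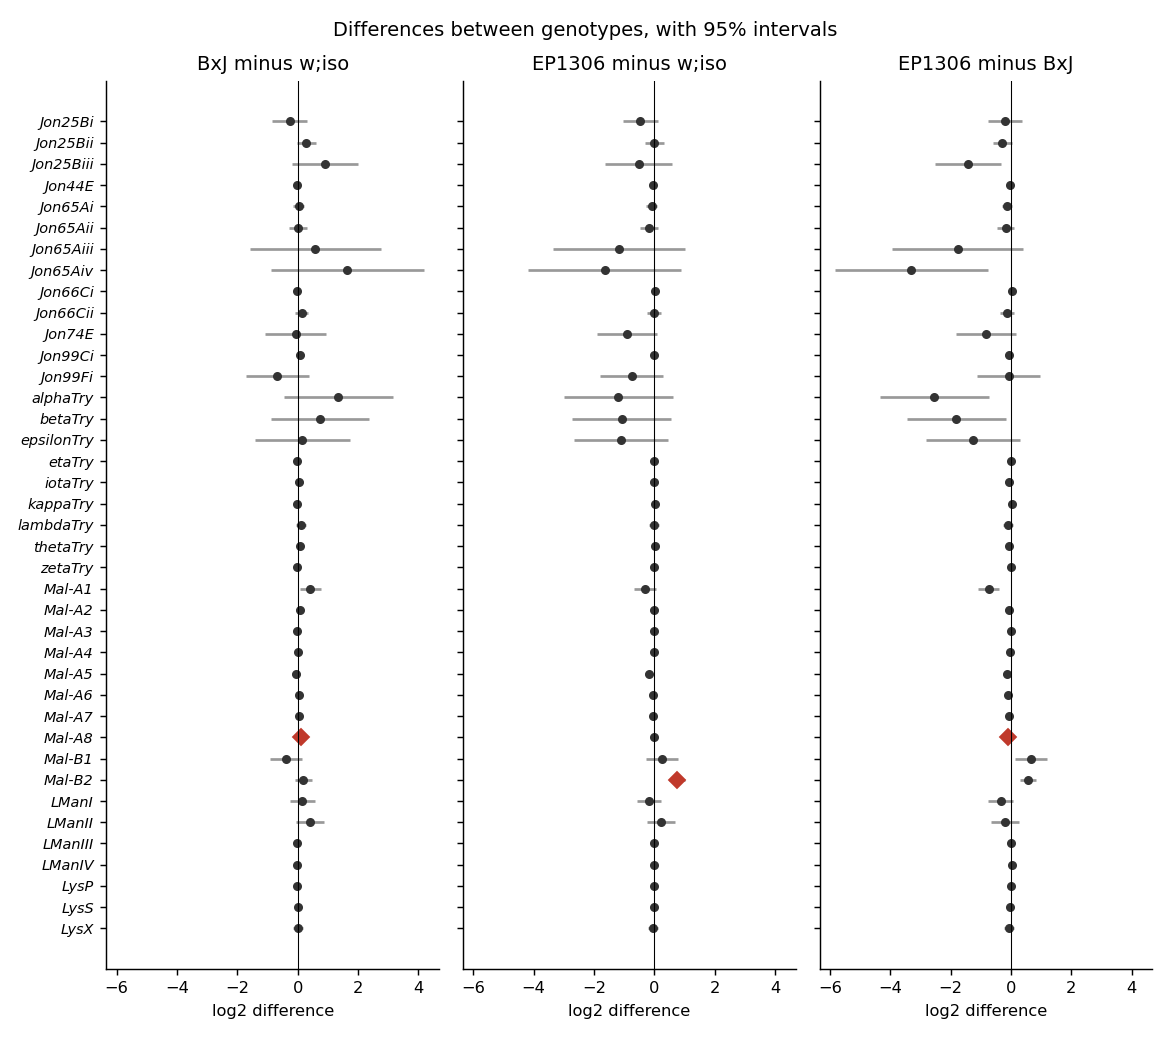
Log2 difference (horizontal axis, with 95% interval from limma) of each of the 39 genes, with a panel for each mutant against the control and a last panel for *EP1306* minus *BxJ*. Diamonds mark the calls, *Mal-A8* in the *BxJ* panel and the last and *Mal-B2* in the *EP1306* panel, while the widest intervals are those of the uneven proteases.

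The 2 mutants can be compared without the control arrays, although both comparisons above share them. In the fit of all arrays 1 of 39 genes was called lower in *EP1306* than in *BxJ* and 0 higher, against 1.23% of all probe sets (0.554% higher and 0.671% lower). At an unadjusted p under 0.05 there were 10 of 39 (25.6%, against 10.2%). Of these, 6 were maltases, with *Mal-B1* (log2 difference 0.66) and *Mal-B2* (0.57, adjusted p = 0.0828 from limma) higher in *EP1306*. The maltases *Mal-A1*, *Mal-A5*, *Mal-A6* and *Mal-A8* were lower, as were *Jon25Biii*, *Jon65Aiv*, *alphaTry* and *betaTry*. A test for any difference among the 3 genotypes called 2 of the 39, *Mal-A8* and *Mal-B2* (against 1.49%). The gene called between the mutants was *Mal-A8*, with a log2 difference of -0.10 (adjusted p = 0.0126 from limma), a call lost without *EP1306* replicate 2. The median difference was -0.081 beside 0.008 over all probe sets (-0.127 when *BxJ* replicate 2 was omitted), and in 13 of the 39 genes every *EP1306* array lay below every *BxJ* array (33.3%, against 6.10%). These were 6 Jonah proteases (*Jon25Bii*, *Jon25Biii*, *Jon65Aii*, *Jon65Aiii*, *Jon65Aiv* and *Jon74E*), the trypsins *alphaTry*, *betaTry* and *epsilonTry*, and the maltases *Mal-A1*, *Mal-A5*, *Mal-A6* and *Mal-A8*. In the opposite direction there were 5 genes, *Mal-B2* among them (12.8%, against 11.3%). The others, *LManIV*, *LysP*, *kappaTry* and *zetaTry*, were below the median of every array, with differences of 0.01 to 0.03. Of the 13, *Jon65Aii*, *Mal-A6* and *Mal-A8* were also below it. The members were chosen with earlier results of these data known, and the proteases rose and fell together over the arrays. The shares of 33.3% and 25.6% therefore cannot be weighed against those of all probe sets.

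Among the 13, *Jon65Aiv* differed by -3.30 on the log2 scale (standard error 1.10, 95% interval -5.84 to -0.77), and did not pass (adjusted p = 0.326 from limma). The spread that enters this test includes the control arrays. Without control replicate 2 the same difference was called (adjusted p = 0.0144 from limma, in a fit that called 0.826% of all probe sets), and in a fit of only the 2 mutants as well (adjusted p = 0.0331). Control replicate 2 was left out because of its values for these genes, so the call without it is no separate support. *alphaTry* differed by -2.54 (95% interval -4.34 to -0.74, adjusted p = 0.277, and 0.0673 without control replicate 2). *betaTry* differed by -1.82 (adjusted p = 0.417, and 0.0511 without it) and *Jon25Biii* by -1.42 (adjusted p = 0.334, and 0.153 without it). *Mal-A1* differed by -0.73 (95% interval -1.09 to -0.38, adjusted p = 0.0866). For each, the exact permutation p was 0.1.

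The alpha-mannosidases and lysozymes gave no call in any comparison by limma, with 0 of their 7 genes at an unadjusted p under 0.05. *LManII* (1635125_a_at) was above the median throughout, at 1185, 844 and 689.7 in the control, 1354, 1146 and 1045 in *BxJ*, and 1238, 932 and 925 in *EP1306*, and in each genotype replicate 1 was the highest. Its log2 difference was 0.40 in *BxJ* (95% interval -0.06 to 0.86) and 0.21 in *EP1306* (95% interval -0.25 to 0.67). *LManI*, its neighbor on 2L, was at 188, 136 and 161, at 203, 201 and 146, and at 170.0, 112 and 142, with all genotypes overlapping. *LysX* was at 9.39, 10.4 and 11 in the control, 14.2, 9.32 and 8.75 in *BxJ*, and 9.56, 9.56 and 9.18 in *EP1306*, with overlapping genotypes. Its log2 difference was 0.02 in *BxJ* (95% interval -0.14 to 0.18) and -0.05 in *EP1306* (95% interval -0.20 to 0.11).

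**Figure D5:**
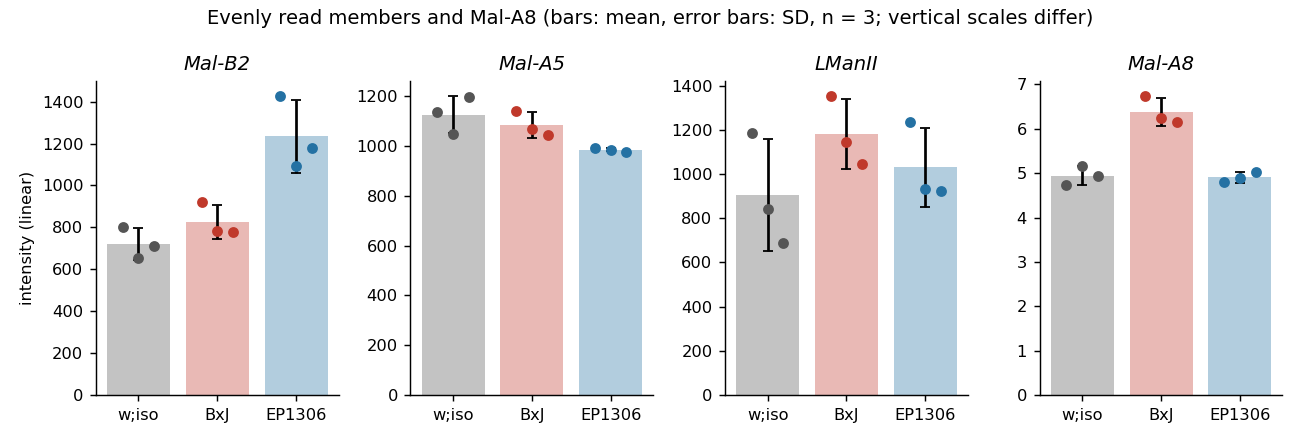
Linear intensity (vertical axis) of *Mal-B2*, *Mal-A5*, *LManII* and *Mal-A8*, with bars for the genotype mean, error bars for the SD (n = 3) and a point for each array. The *EP1306* arrays of *Mal-B2* all exceed the other 6, and *Mal-A8* stays below an intensity of 7 throughout.

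A list of other genes of the digestive tract was set beside the members, and 45 of its 52 genes were measured, 22 of them below the median on every array. It also holds the midgut markers above, except *cad*. Against the control, 0 of the 45 passed in *BxJ* (against 0.288% of all probe sets) and 1 in *EP1306* (against 1.14%). The 1 was *Gal*, which encodes a beta-galactosidase and fell by 0.85 on the log2 scale (adjusted p = 0.0292 from limma). Between the mutants 1.23% of all probe sets were called. *Gal* was at 183, 148 and 125 in the control, 160.1, 133 and 149 in *BxJ*, and 68.7, 83.4 and 77.6 in *EP1306*. In *EP1306* minus *BxJ*, *Gal* was also lower, by 0.82 (adjusted p = 0.0335), as was *Npc2d*, of a family of sterol-binding proteins, at a floor intensity of 5.02 to 7.35, while *AstC*, which encodes the neuropeptide allatostatin C, was higher by 0.58 (adjusted p = 0.0315).

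Chosen after their values were seen, *yip7*, a serine protease related to the Jonah genes, and *Bace*, an aspartic protease, were 2 of the 45. They were the 2 that exceeded both other controls by more than 1 log2 unit in control replicate 2 (against 0.362% of all probe sets). That array was the highest control for 14 of the 45, against 36.2% of all probe sets, so the list as a whole did not share the pattern. *yip7* was at 11.6, 344 and 14.2 in the control, 61.7, 13.6 and 134 in *BxJ*, and 11.8, 11.8 and 11.4 in *EP1306*. *Bace* was at 25, 232 and 28.7, at 175, 84.8 and 176, and at 28.5, 39.0 and 31.6 in the same order. Neither passed limma's test in any comparison.

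The 2 amylase genes, which encode the starch-cleaving enzymes, share 1 probe set (1639374_s_at) that was left out of the members because it cannot tell them apart. Its intensity was 470.0, 338 and 354 in the control, 545, 529 and 538 in *BxJ*, and 226, 207 and 269 in *EP1306*, with no overlap between any pair of genotypes, and, unlike for the uneven proteases, control replicate 2 was the lowest of the controls. It was lower in *EP1306* than in *BxJ* by 1.15 on the log2 scale (95% interval -1.45 to -0.85, adjusted p = 0.0053 from limma), and its differences from the control, -0.68 in *EP1306* (adjusted p = 0.0586) and 0.47 in *BxJ* (adjusted p = 0.257), did not pass. The study had selected this probe set on the same arrays, so the direction seen here cannot count as separate evidence.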

How the data were processed

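The authors deposited 1 MAS5 intensity per probe set and array, on a linear scale, for 9 arrays (3 per genotype). The deposited intensity was not rescaled, the 183 Affymetrix control probe sets were removed, and log2 of the intensity plus 16 was computed for the other 18769 of 18952 probe sets. Genotypes were compared with limma 3.58.1 in R 4.3.3 (a mean per genotype over all 9 arrays, eBayes with an intensity trend), with Benjamini-Hochberg adjustment over all 18769 and a call at an adjusted p under 0.05. The limma fit, but not the permutation test, was checked on simulated data with independent noise of the same spread in each genotype. Those data were given no outlying arrays, so the check does not cover the uneven proteases. Single genes were also given an exact two-sided permutation test, which with 3 arrays against 3 cannot go below 0.1. The number of arrays limits the precision.

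Gene names came from the platform's table. Values on every array are given for members called, those with the highest mean of a family and the 10 with the widest range within a genotype, while *Jon25Bii*, *Jon65Aii*, *Mal-A1*, *Mal-B1* and *LManI* were added after their values were seen. Signal shared between near-identical paralogs was not checked. The members and the gene lists were chosen with earlier results of these data known. Shares of members set beside those of all probe sets therefore only describe the data. Alternatives were other pseudocounts, normalizations, filters and models, and leaving out each array. No member had a second single-gene probe set, so that choice had no alternative.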

Additional observations from a re-analysis of the deposited data

Results flagged for a closer look

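*Mal-A8* was flagged because its shift from the control differed between the mutants: the log2 difference was 0.10 in *BxJ* and -0.00 in *EP1306*, and the test of *EP1306* minus *BxJ* gave -0.10 (adjusted p = 0.0126 from limma). All 9 intensities were below the array medians.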

How the results depend on the processing

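The single calls were not stable. In *BxJ* minus *w;iso* the count of 1 became 0 under median centring, the filter on low values, no trend, the spike-in covariate, the fit of only the 2 genotypes compared and the methods' t-test after Benjamini-Hochberg adjustment, and 2 at that test's unadjusted threshold. In *EP1306* minus *w;iso* it became 0 with the spike-in covariate, only the 2 genotypes and the adjusted t-test, and 3 unadjusted. In *EP1306* minus *BxJ* it became 0 under median centring, no trend and the adjusted t-test, 2 with the filter (*Mal-A1* and *Mal-B2*) or only the 2 genotypes (*Jon65Aiv* and *Mal-A8*), and 11 unadjusted. Leaving out 1 array gave 0 to 1, 0 to 1 and 0 to 2 calls. The filter, which removes the dim members, moved the medians to 0.404, -0.523 and -0.832, and a pseudocount of 1 moved the third to -0.200.

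Same-numbered arrays did not in general deviate together (correlations -0.376 to 0.289 over 9 pairs, 2 of 9 arrays closest to their own number). The main fit therefore did not pair arrays by number, although so few correlations cannot exclude a shared batch. With a replicate block the members called were 0 in *BxJ* minus *w;iso*, 1 in *EP1306* minus *w;iso* and 2 in *EP1306* minus *BxJ* (*Mal-A8* and *Mal-B2*).

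Over all probe sets the counts of 54, 214 and 230 became 5, 49 and 202 with the spike-in covariate, 15, 88 and 153 with only the 2 genotypes, 113, 380 and 307 of 9384 with the filter, and 0, 11 and 25 by the adjusted t-test. Without 1 array they were 21 to 127, 103 to 247 and 113 to 231.

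Directions that reversed did so among differences that were not called, and the cause was not tested. With the spike-in covariate, *BxJ* minus *w;iso* became 0.74 for *Jon74E*, 0.03 for *Jon99Fi*, -0.07 for *LManII*, -0.04 for *LysX* and -0.04 for *Mal-B2*, and *EP1306* minus *w;iso* became -0.21 for *LManII*. Median centring gave -0.00061 for *LysX* in *BxJ* and 0.01 for *Mal-A8* in *EP1306*, and quantile normalization gave 0.0013 for *Mal-A5* in *BxJ* and 0.0035 for *Mal-A8* in *EP1306*. Without 1 array, *BxJ* minus *w;iso* ran from -0.44 to 0.06 for *Jon25Bi*, -0.42 to 0.42 for *Jon74E*, -0.07 to 0.08 for *LysX* and -0.31 to 0.98 for *epsilonTry*. *EP1306* minus *w;iso* ran from -0.79 to 0.01 for *Jon25Biii* and -0.01 to 0.0041 for *Mal-A8*, and *EP1306* minus *BxJ* from -0.16 to 0.05 for *Jon99Fi* and -0.12 to 0.02 for *LysX*. The positive ends for *Jon25Bi*, *Jon25Biii*, *Jon74E* and *epsilonTry* came without *w;iso* replicate 2.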
